A study of Homo sapiens with 12 samples.

Results

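Transcripts of 7 cell cycle genes were followed in HEK293T cells over a time course of GSK-A1: the G1 and S phase cyclins CCND1 and CCNE1, the mitotic regulators CCNB1, CDK1 and PLK1, and the proliferation genes TOP2A and MKI67. They were selected by 10 Ensembl transcript identifiers that stand for 9 genes. No values of MYC, which had 2 of the identifiers, or of CDKN1B were analysed here. The 7 transcripts with counts are 7 of 18338 listed in the series, and each was listed in all 12 libraries. The files give identifiers without symbols, so the pairing of symbol and identifier is that of the selection. The identifiers are ENST00000227507 (CCND1), ENST00000262643 (CCNE1), ENST00000256442 (CCNB1), ENST00000395284 (CDK1), ENST00000300093 (PLK1), ENST00000423485 (TOP2A) and ENST00000368654 (MKI67).

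HEK293T is a transformed human embryonic kidney line, here wild-type in genotype, and GSK-A1 inhibits the lipid kinase PI4KA, which makes phosphatidylinositol 4-phosphate at the plasma membrane. Ribosome-protected fragments (RPF, the mRNA pieces shielded by translating ribosomes) and polyA RNA (mRNA) were sequenced at 0, 60 and 360 min, with 2 replicates for each assay and time. The 0 min libraries carry the same GSK-A1 label as the others and serve as the reference by their time alone. The labels do not say whether replicates were separate cultures, so p-values measure the spread between these libraries, which may be technical. Kidney or embryonic markers of the line were not analysed here, since the other transcripts have no symbols.

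Cells enter the cycle when growth signals raise cyclin D1, the product of CCND1, which partners with CDK4 and CDK6 to begin phosphorylation of the retinoblastoma protein. Cyclin E1 (CCNE1) then activates CDK2 at the start of DNA replication. CDK1 with cyclin B1 (CCNB1) drives entry into mitosis, where the kinase PLK1 acts on centrosomes, the spindle and cytokinesis. TOP2A, topoisomerase II alpha, untangles sister chromatids, and MKI67 encodes the Ki-67 protein that coats mitotic chromosomes and is used as a marker of dividing cells. D-type cyclin synthesis is a textbook case of translation that depends on growth signals, and mRNA levels of the mitotic genes are highest in G2 and M phase.

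Library totals ran from 546547 to 1165740 counts in RPF and from 429026 to 1002695 counts in mRNA. Levels are given in CPM, the count divided by a library total scaled by the trimmed mean of M-values (TMM) within each assay, times 1000000, and translational efficiency (TE) is the RPF level relative to the mRNA level. Both mRNA libraries of 360 min stood apart in composition: their 10 most abundant transcripts took 14.1% and 14.7% of the counts, against 8.07% to 10.7% in the other 4 mRNA libraries. In RPF these shares were also highest at 360 min, 8.57% and 9.03% against 6.67% to 7.95% at 0 and 60 min. The 360 min mRNA libraries had the lowest totals of that assay, 429026 and 593334 counts. In RPF the 360 min total was the lowest of each replicate number, at 825633 and 546547 counts. Depth and composition thus differed by time in both assays, and their part in the changes was not tested. The 7 transcripts together held 481 to 1047 counts per RPF library and 233 to 962 per mRNA library. In bulk samples, a lower level in every cell and fewer cells in that phase of the cycle cannot be told apart.

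By edgeR's quasi-likelihood test, 0 of 7 transcripts had an adjusted p under 0.05, in RPF, mRNA or TE, at any of the 3 pairs of times. The background was the same: 0% of 9653 RPF transcripts, 0% of 9693 mRNA transcripts and 0% of 8632 TE transcripts reached it in each comparison. All 7 passed the filter on low counts in each assay. Among the 7, an unadjusted p-value under 0.05 was reached by 1 transcript in RPF at 360 min against 60 min (CCND1) and by 1 in mRNA and 1 in TE at 360 min against 0 min and against 60 min (CDK1 each time). The shares of all transcripts with such a p-value were 2.31%, 3.91% and 7.8% in RPF (60 against 0, 360 against 0 and 360 against 60 min), 1.37%, 8.92% and 10.3% in mRNA and 1.75%, 5.66% and 4.69% in TE. DESeq2 called 0 of the 49 member changes for which alternatives were run, 4 of which had an unadjusted p-value under 0.05 and 4 of which received no adjusted value. Over all transcripts DESeq2 called 1, 1 and 2 in RPF, 0, 8 and 66 in mRNA and 0, 0 and 2 in TE, in the same order. The median standard error (SE) of the 7, by comparison, was 0.408 to 0.412 log2 units in RPF, 0.435 to 0.455 in mRNA and 0.559 to 0.568 in TE. Single SEs ran from 0.357 to 0.667 in RPF, from 0.366 to 0.688 in mRNA and from 0.513 to 0.81 in TE.

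The log2 difference farthest from 0 in either assay was that of the mRNA of CDK1, the cyclin-dependent kinase that triggers mitosis. Its mRNA level was 72.5 and 74.4 CPM in the 0 min libraries, 77 and 84.7 CPM at 60 min, and 16.4 and 36.4 CPM at 360 min, for replicates 1 and 2. Both 360 min libraries lay below all 4 earlier ones. These levels rest on 58 and 53 counts at 0 min, 69 and 94 at 60 min, and 6 and 21 at 360 min. The exact 95% Poisson interval, which covers counting error only, reached from 6.02 to 35.7 CPM and from 22.5 to 55.7 CPM in the 360 min libraries. Its lower bound in the 4 earlier libraries was 55.1 to 68.4 CPM, so the interval of the 360 min replicate 1 library lay below theirs, while that of replicate 2 overlapped at least one of them. On the log2 scale CDK1 mRNA at 360 min differed from 0 min by −1.43 (SE 0.455, 95% interval −2.46 to −0.40; edgeR adjusted p = 0.5582). The difference from 60 min was −1.57 (SE 0.452; edgeR adjusted p = 0.3545). Of all mRNA transcripts, 18.8% were lower in both 360 min libraries than in both 0 min libraries, and 19.2% than in both 60 min libraries. The CDK1 change against 0 min stood at the 5.44 percentile of the 9693 changes, and that against 60 min at the 2.9 percentile. Without the 360 min replicate 1 library, the shallowest of all 12, the change against 0 min was −1.0, and without replicate 2 it was −2.12. The part of the composition of the 360 min libraries in this value was not tested.

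Footprints on CDK1 did not show that pattern. The RPF level was 174 and 126 CPM at 0 min, 137 and 182 CPM at 60 min, and 176 and 145 CPM at 360 min. The 3 times overlapped throughout, and the group means were 150 ± 33.4 CPM (SD, n = 2), 159 ± 32.0 CPM and 160 ± 21.9 CPM. From 0 to 360 min the log2 difference was 0.10 (SE 0.382), and its 95% interval from −0.71 to 0.91 includes moderate changes in either direction. The ratio of mean RPF to mean mRNA CPM of CDK1 was 2.04 at 0 min, 1.97 at 60 min and 6.07 at 360 min. The ratio was also taken over the 4 ways to pair an RPF with an mRNA library. It ran from 1.70 to 2.39 at 0 min and from 3.98 to 10.7 at 360 min. The share of all transcripts whose pairings at these times do not overlap was not computed. In edgeR's interaction test the TE of CDK1 at 360 min exceeded that at 0 min by 1.50 log2 units (SE 0.551, 95% interval 0.32 to 2.67; edgeR adjusted p = 0.8581). It exceeded that at 60 min by 1.53 (SE 0.549; edgeR adjusted p = 0.9481).

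**Figure D1:**
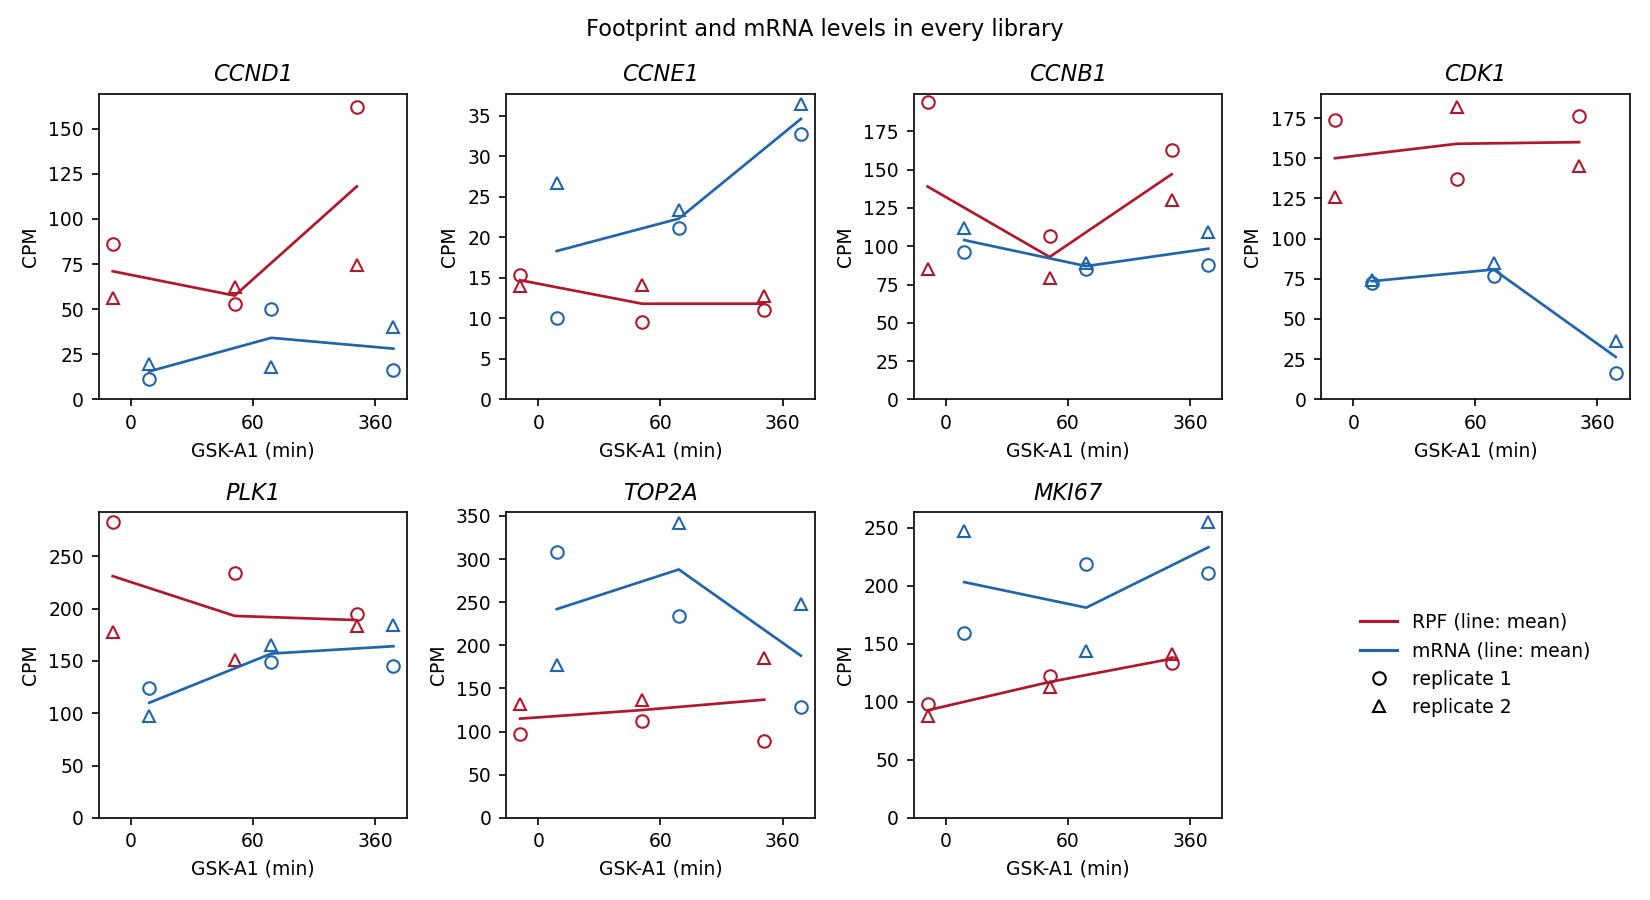
Level of each transcript in CPM (vertical axis, linear from 0, own range in each panel) at 0, 60 and 360 min of GSK-A1 (horizontal axis, times evenly spaced). Circles and triangles are the replicate 1 and 2 libraries, red is RPF and blue is mRNA, and lines join the means. For CDK1 the blue symbols at 360 min, 16.4 and 36.4 CPM, sit below the other 4 blue symbols while the red symbols overlap at all times.

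At 360 min the mRNA levels of CCNB1 overlapped those of 0 min and those of PLK1 lay above them with TMM scaling, and the difference between these genes and CDK1 was not tested. CCNB1, the mitotic cyclin that activates CDK1, had mRNA levels of 96.3 and 112 CPM at 0 min, 84.8 and 89.2 CPM at 60 min, and 87.5 and 109 CPM at 360 min. These libraries spanned a narrow range, and the 360 min level differed from that of 0 min by −0.09 log2 units (SE 0.372, 95% interval −0.93 to 0.75). At 60 min both CCNB1 mRNA libraries were below both 0 min libraries, as was the case for 12.2% of all mRNA transcripts tested. Its footprints varied more: 194 and 85.4 CPM at 0 min, 107 and 79 CPM at 60 min, and 163 and 130 CPM at 360 min. The high value of 194 CPM came from the 0 min replicate 1 library. The log2 difference of 60 min RPF from 0 min, −0.58 (SE 0.420), turned to 0.13 without that library. Replicate 1 was the higher library at every time, which this fit did not take into account. With the replicate number as a block the difference was −0.52. From 60 to 360 min both CCNB1 footprint libraries lay higher, with a log2 change of 0.66 (SE 0.425, edgeR adjusted p = 0.7343). That ordering held for 17.4% of all RPF transcripts. The TE of CCNB1 differed from 0 min by −0.30 log2 units (SE 0.559) at 60 min and by 0.13 (SE 0.564) at 360 min.

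PLK1, the polo-like kinase of mitosis, had mRNA levels of 124 and 96.9 CPM at 0 min, 149 and 165 CPM at 60 min, and 145 and 184 CPM at 360 min. The later libraries lay above both 0 min libraries, as did 13.4% of all mRNA transcripts at 60 min and 20.1% at 360 min. With library totals in place of TMM they overlapped at 360 min, at 124 and 179 CPM against 130 and 95.9 CPM. Relative to 0 min, PLK1 mRNA was higher by 0.51 log2 units at 60 min (SE 0.380; edgeR adjusted p = 0.9999) and by 0.57 at 360 min (SE 0.384; edgeR adjusted p = 0.6578). The PLK1 footprint level was 283 and 178 CPM at 0 min, 234 and 151 CPM at 60 min, and 195 and 183 CPM at 360 min, which overlap. In RPF the log2 difference of 360 from 0 min was −0.28 (SE 0.408), and 0.08 without the 0 min replicate 1 library. With the replicate number as a block it was −0.25. The ratio of RPF to mRNA was 2.09 at 0 min (1.44 to 2.92 over the pairings), 1.23 at 60 min and 1.15 at 360 min (0.995 to 1.35). How large a share of all transcripts had pairings at 0 and 360 min that do not overlap was not computed. The TE of PLK1 differed from 0 min by −0.75 log2 units (SE 0.530) at 60 min. At 360 min the difference was −0.89 (SE 0.536, 95% interval −2.04 to 0.25; edgeR adjusted p = 0.8638).

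The sequences before the starts of the CDK1, CCNB1 and PLK1 genes are shown. Transcripts of the 3 genes are known to peak together late in the cycle. With TMM scaling their mRNA levels at 360 min were below (CDK1), overlapping (CCNB1) and above (PLK1) those of 0 min. With library totals those of PLK1 overlapped, and none of these changes passed the test. A link between the sequences and the mRNA levels was not tested. Each line gives the 150 bases before a RefSeq gene start of GRCh38.p14, 5′ to 3′ on the gene's strand. Capitals mark CCAAT (or ATTGG on the other strand), bound by NF-Y, and TTTGAA (or TTCAAA), the core of the cell cycle homology region through which the DREAM and MMB-FOXM1 complexes are known to act. For CDK1 the table holds 2 starts, and the downstream start is shown. The counted transcripts were not assigned to a start.
CCNB1, chr5:69167000-69167149, plus strand: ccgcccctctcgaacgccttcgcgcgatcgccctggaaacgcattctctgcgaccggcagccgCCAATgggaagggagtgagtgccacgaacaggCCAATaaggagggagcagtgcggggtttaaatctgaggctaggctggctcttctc
CDK1, chr10:60778328-60778477, plus strand: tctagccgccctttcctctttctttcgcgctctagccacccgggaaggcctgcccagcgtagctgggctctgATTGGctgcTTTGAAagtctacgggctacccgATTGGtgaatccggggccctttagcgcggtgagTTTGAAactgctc
PLK1, chr16:23678739-23678888, plus strand: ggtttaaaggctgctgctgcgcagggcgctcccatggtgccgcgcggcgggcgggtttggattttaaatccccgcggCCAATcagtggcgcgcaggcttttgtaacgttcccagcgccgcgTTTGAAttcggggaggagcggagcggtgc

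In the 250 bases before the start shown, CDK1 held CCAAT letters at −78 and −46 and TTTGAA letters at −69 and −13, where −1 is the base before the start and the position is that of the leftmost base. The upstream CDK1 start, not shown, held CCAAT at −150 and TTTGAA at −161. PLK1 held CCAAT at −73 and TTTGAA at −29. CCNB1 held CCAAT at −87 and −55, and TTTGAA was not found in this window on either strand. Variants of TTTGAA were not searched for, so these letters alone do not show that the element is missing. CCAAT was present in 32% and TTTGAA in 13.3% of the 35116 windows of the same length in the table. TOP2A held 4 CCAAT and 2 TTTGAA matches and MKI67 held 2 of each, a pair of which overlap at MKI67, while CCNE1 held neither. CACGTG, the E-box recognised by MYC and MAX, was found at −196 in CCNB1 and at −198 in PLK1, and in 6.34% of all windows. CCND1 had no entry. A match is a description of the letters and does not show a bound site.

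TOP2A and MKI67 had low ratios of footprints to mRNA at 0 min, 0.474 and 0.456. The ratios were 0.432 and 0.647 at 60 min, and 0.728 and 0.590 at 360 min, where the pairings of TOP2A, 0.360 to 1.44, extended past the median of all transcripts, 1.15. TOP2A had mRNA levels of 308 and 177 CPM at 0 min, 234 and 342 CPM at 60 min, and 129 and 248 CPM at 360 min, and all 3 times overlapped. Its footprints were 97.7 and 132 CPM at 0 min, 112 and 137 CPM at 60 min, and 89.3 and 185 CPM at 360 min, which also overlap. From 0 to 360 min the log2 difference of TOP2A was −0.37 (SE 0.496) in mRNA and 0.25 (SE 0.411) in RPF. Each took the opposite sign without one of the libraries: mRNA was 0.12 without 0 min replicate 1 and RPF was −0.38 without 360 min replicate 2. The TE of TOP2A differed from 0 min by −0.12 log2 units (SE 0.642) at 60 min and by 0.58 (SE 0.648) at 360 min.

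MKI67 replicates lay close together in RPF. The level was 97.7 and 87.5 CPM at 0 min, 122 and 113 CPM at 60 min, and 133 and 141 CPM at 360 min, so that each later pair lay above the earlier ones. The share of all transcripts with this full order was not computed. Exact 95% Poisson intervals reached up to 118 and 109 CPM at 0 min and began at 108 and 112 CPM at 360 min. With library totals the 60 and 360 min pairs touched, at 117 and 122 CPM against 117 and 143 CPM. Relative to 0 min, MKI67 footprints were higher by 0.34 log2 units at 60 min (SE 0.357; edgeR adjusted p = 0.9994) and by 0.57 at 360 min (SE 0.359, 95% interval −0.19 to 1.33; edgeR adjusted p = 0.9999). The latter value ran from 0.47 to 0.64 where single RPF libraries were left out. Of all RPF transcripts, 15.4% lay higher in both libraries at 60 min than at 0 min and 13.6% at 360 min than at 0 min, and 17.4% at 360 min than at 60 min, where the MKI67 difference was 0.23 log2 units (SE 0.358). MKI67 mRNA did not follow the same order: it was 159 and 247 CPM at 0 min, 219 and 144 CPM at 60 min, and 211 and 255 CPM at 360 min. The TE of MKI67 exceeded that of 0 min by 0.51 log2 units (SE 0.530) at 60 min and by 0.34 (SE 0.532) at 360 min. Leaving out single libraries moved these values from 0.16 (without 0 min mRNA replicate 2) to 0.89 (without 60 min mRNA replicate 1), and from 0.01 to 0.63 (without 0 min mRNA replicate 2 and 1).

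CCND1, the cyclin through which growth signals enter the cycle, had the highest ratio of footprints to mRNA of the 7 at 0 min. Its RPF level was 85.9 and 56.2 CPM at 0 min, 53 and 62.1 CPM at 60 min, and 162 and 74.2 CPM at 360 min. Both 360 min libraries lay above both 60 min libraries, as did those of 17.4% of all RPF transcripts, but 74.2 CPM was within the 0 min range. Compared with 0 min, CCND1 footprints differed by −0.31 log2 units (SE 0.421) at 60 min and by 0.74 (SE 0.413) at 360 min. Between 60 and 360 min the difference was 1.05 (SE 0.422, 95% interval 0.16 to 1.94; edgeR adjusted p = 0.5764). Both 360 min values rested on the replicate 1 library of that time: without it the difference was 0.03 from 0 min and 0.35 from 60 min.

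CCND1 mRNA was sparse, with 6 to 45 counts per library. Its level was 11.3 and 19.7 CPM at 0 min, 50.2 and 18 CPM at 60 min, and 16.4 and 39.9 CPM at 360 min, and the times overlapped. From 0 to 60 min the log2 difference in mRNA was 1.13 (SE 0.651), and 0.24 without the 60 min replicate 1 library. From 0 to 360 min it was 0.91 (SE 0.688), and 0.13 without the 360 min replicate 2 library. The ratio of RPF to mRNA was 4.60 at 0 min, above 98.1% of the 8632 transcripts tested, where the median ratio was 1.11. It was 1.69 at 60 min and 4.20 at 360 min. Over the pairings the ratio ran from 2.86 to 7.63 at 0 min, 1.06 to 3.44 at 60 min and 1.86 to 9.88 at 360 min, which overlap. The 0 min ratio rests on 9 and 14 mRNA counts. The TE of CCND1 at 60 min differed from 0 min by −1.44 log2 units (SE 0.804, 95% interval −3.16 to 0.28; edgeR adjusted p = 1). At 360 min it exceeded that of 60 min by 1.23 (SE 0.795). Without the 60 min replicate 1 mRNA library these values were −0.48 and 0.27.

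CCNE1, the cyclin of the G1 to S transition, was the scarcest of the 7 in RPF counts, with 7 to 17 per library. Its RPF level was 15.4 and 14 CPM at 0 min, 9.54 and 14.1 CPM at 60 min, and 11 and 12.7 CPM at 360 min. Both 360 min values lay below both 0 min values, an order found in 13.7% of RPF transcripts. The log2 difference was −0.32 (SE 0.641), and the exact 95% Poisson intervals of the 360 min libraries extended to 21.7 and 26.1 CPM, above both 0 min values. CCNE1 mRNA was 10 and 26.7 CPM at 0 min, 21.2 and 23.4 CPM at 60 min, and 32.8 and 36.4 CPM at 360 min. Both 360 min libraries lay above the other 4, an order that 20.1% of mRNA transcripts showed against 0 min and 21% against 60 min. The mRNA difference of 360 min from 0 min was 0.92 log2 units (SE 0.555; edgeR adjusted p = 0.6246), and it ran from 0.41 to 1.77 as single mRNA libraries were left out. From 60 min the difference was 0.63 (SE 0.534). The ratio of RPF to mRNA was 0.802 at 0 min (0.527 to 1.54 over the pairings), 0.530 at 60 min and 0.342 at 360 min (0.302 to 0.386). How large a share of all transcripts had pairings at 0 and 360 min that do not overlap was not computed.

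**Figure D2:**
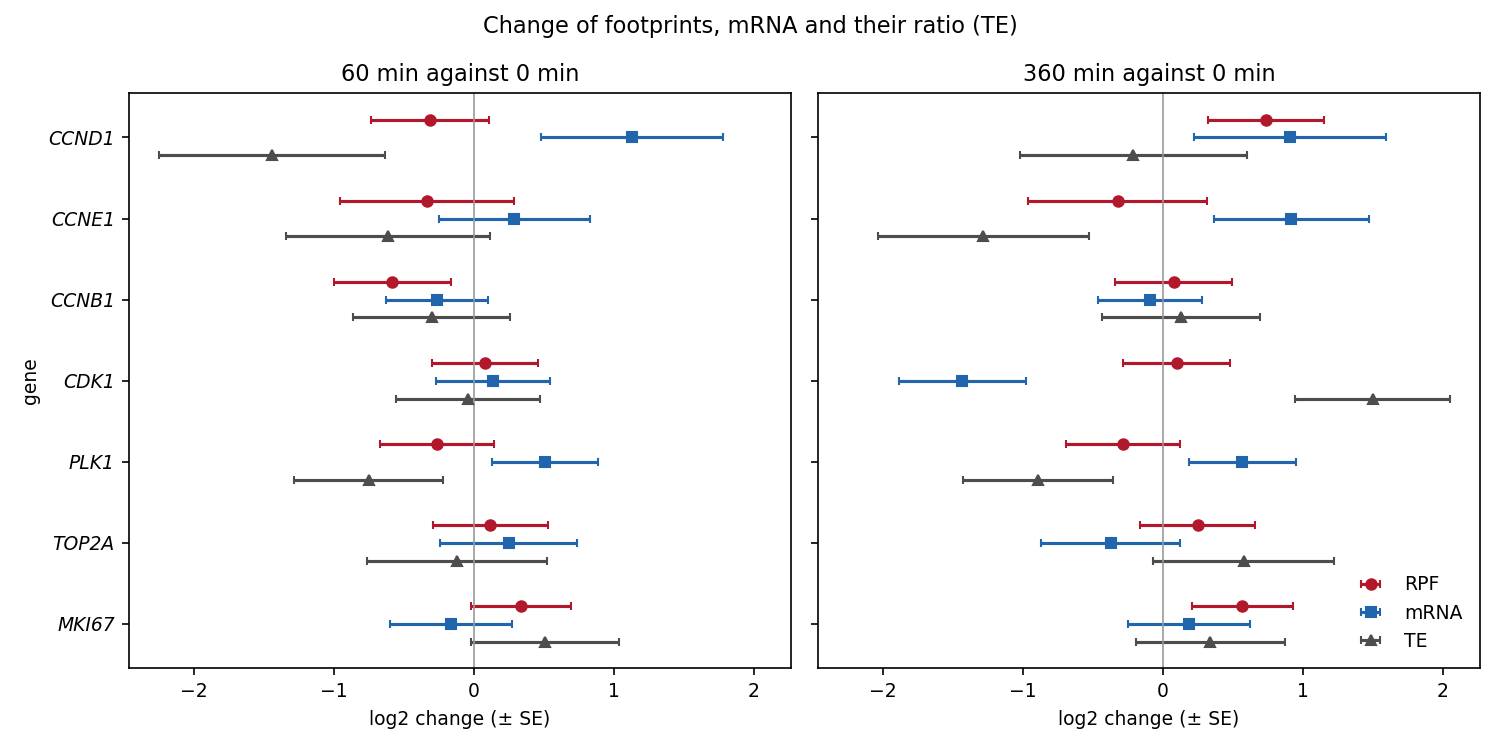
Log2 change (horizontal axis) of the RPF level (red circles), the mRNA level (blue squares) and TE (grey triangles) of each gene at 60 and 360 min against 0 min, with SE bars from edgeR. At 360 min CDK1 has the lowest mRNA change, −1.43, and the highest TE change, 1.50, and the bars of most other values reach or approach 0.

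In no comparison did all 7 changes have the same sign. In RPF, 3 of 7 log2 changes were positive at 60 min against 0 min and 5 of 7 at 360 min against 0 min, with medians of −0.26 and 0.10 beside −0.0097 and 0.0237 over all transcripts. In mRNA, 5 and 4 of 7 were positive, with medians of 0.25 and 0.19 beside −0.0168 and −0.033. In TE, 1 of 7 was positive at 60 min, where the median was −0.30 beside 0.0197, and 4 of 7 at 360 min, where it was 0.13 beside 0.0124. At 360 min against 60 min, 6 of 7 RPF changes were positive, with a median of 0.14 beside 0.0422 over all transcripts. In mRNA and in TE, 4 of 7 were positive there, with medians of 0.06 and 0.43 beside −0.0437 and 0.0261. The RPF and mRNA signs enter the TE values, and the comparisons with 0 min share the same 0 min libraries. Replicates did not overlap in either direction for 1 and 2 of the 7 in RPF (60 and 360 min against 0 min) and for 3 and 3 in mRNA. Of these, 1 and 1 were higher in RPF and 2 and 2 in mRNA, where 15.4% and 13.6% of all RPF transcripts and 13.4% and 20.1% of all mRNA transcripts lay higher. The rest were lower, as were 13.7% of RPF transcripts at 360 min and 12.2% and 18.8% of mRNA transcripts at 60 and 360 min. At 360 min against 60 min, 3 of 7 lay higher and 0 lower in RPF, where 17.4% of all lay higher. In mRNA 1 lay higher and 1 lower, beside 21% and 19.2% of all. The member counts were not tested against these shares. The summed RPF level of the 7 was 947 and 680 CPM at 0 min, 775 and 738 CPM at 60 min, and 930 and 871 CPM at 360 min. The summed mRNA level was 780 and 754 CPM, 835 and 867 CPM, and 637 and 909 CPM at these times, with the lowest value in the shallow 360 min replicate 1 library.

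The 7 genes differed in footprints per mRNA. At 0 min the ratio was 4.60 for CCND1, 2.09 for PLK1, 2.04 for CDK1, 1.34 for CCNB1, 0.802 for CCNE1, 0.474 for TOP2A and 0.456 for MKI67. The pairings of TOP2A (0.317 to 0.745) and MKI67 (0.354 to 0.615) stayed below those of CDK1 (1.70 to 2.39) and PLK1 (1.44 to 2.92), while each gene's pairings overlapped those of its neighbours in this order at 0 min. TOP2A stood at the 13.4 percentile and MKI67 at the 12.5 percentile of all ratios, and CDK1 and PLK1 at the 82.6 and 83.5 percentiles. At 360 min CDK1 was at the 97.3 and CCNE1 at the 5.24 percentile. The counted region is not given in the sources used here, so these ratios between genes also depend on how much untranslated sequence was counted in the mRNA libraries.

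**Figure D3:**
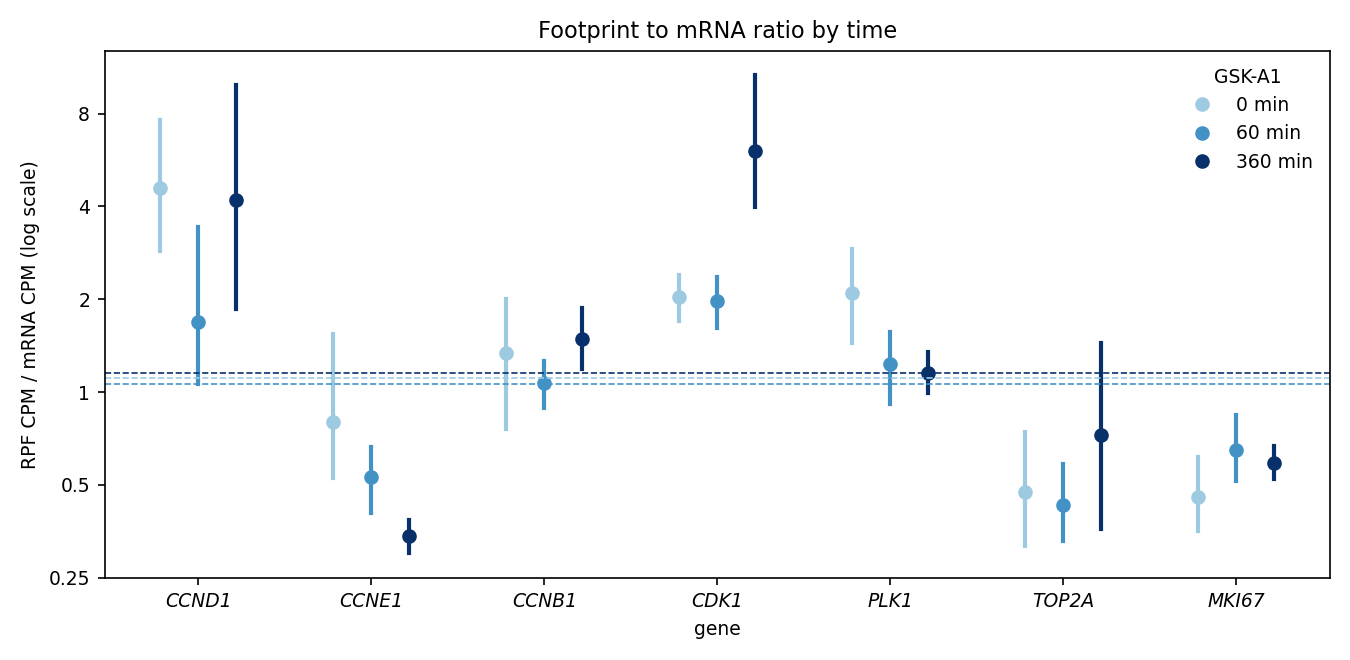
Ratio of the mean RPF CPM to the mean mRNA CPM (vertical axis, log scale) for each gene at 0, 60 and 360 min, light to dark blue. Bars span the lowest and highest of the 4 pairings of an RPF with an mRNA library, and dashed lines are the medians of 8632 transcripts (1.11, 1.06 and 1.15). CDK1 stands at 6.07 at 360 min, above its bars of the earlier times, and CCNE1 at 0.342, below its bar of 0 min. The share of all transcripts set apart in this way was not computed.

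Likeness between members varied from pair to pair and differed by assay. Over the 6 RPF libraries the most similar profiles of log2 CPM were those of CCNB1 and PLK1 (Pearson r = 0.729), which share the high 0 min replicate 1 value, followed by CCND1 and CCNB1 (0.702). For the others the closest member was CCND1 for CDK1 (0.58) and for MKI67 (0.393), CDK1 for CCNE1 (0.259) and MKI67 for TOP2A (0.224). Over the 6 mRNA libraries CDK1 and TOP2A were the closest (0.726), both with their lowest value in the 360 min replicate 1 library. MKI67 was the closest to CCNE1 (0.632), CCND1 (0.594) and CCNB1 (0.53), and CCND1 to PLK1 (0.466). The cyclin and its kinase, CCNB1 and CDK1, had r of 0.376 in RPF and 0.101 in mRNA. These values describe 6 libraries each, which share depth and time, and carry no test.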

How the data were processed

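The deposited files hold raw counts per Ensembl transcript for each library, per the file headers, with no normalization by the authors. Per the submitters' processing notes the tools were cutadapt 2.8, Bowtie 1.2.3 and STAR 2.7.10a. The counting program, genome build, annotation, counted region and use of strand are not given in the sources used here. Per the labels' protocols, RPF were cut as 25 to 35 nt fragments. Transcripts not listed in a library were set to 0.

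The tests used edgeR 4.0.16 under R 4.3.3 (filterByExpr, TMM, estimateDisp, glmQLFit, glmQLFTest) over all 6 libraries of an assay. TE was the interaction of assay and time in a fit of 12 libraries, scaled by TMM assay by assay and limited to transcripts that passed both filters. P-values were adjusted by Benjamini-Hochberg over all transcripts tested, with a threshold of 0.05. SE was derived from the F statistic as the ratio of the log2 change to the root of F. The procedure was tested on simulated data. Alternatives were RLE factors, library totals, 2 filters, DESeq2 1.42.0, a replicate block and leaving out single libraries.

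Members and lists were chosen with earlier results of these data known. All members with counts are named in the text. Alternatives were run for every member change against 0 min, and for those at 360 against 60 min where replicates did not overlap or the log2 change reached 1. The wider lists of cell cycle genes planned were not computed, since 0 of 18338 identifiers matched the gene tables. Promoter letters come from RefSeq (GRCh38.p14), with entries used for 7 of 9 genes. CDKN1B, with CCAAT at −174 and −50, was among them, and MYC was left out of the search. Replicate counts differed beyond sampling noise, with a chi-square per degree of freedom of 8.61 to 16.7, the highest in RPF at 360 min.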

Additional observations from a re-analysis of the deposited data

Results flagged for a closer look

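CCNE1 at 360 min against 0 min was flagged because both RPF libraries lay lower and both mRNA libraries higher. Taken singly, these orders were found in 13.7% of RPF and 20.1% of mRNA transcripts. The share of transcripts with both was not computed. The log2 change of CCNE1 was −0.32 in RPF and 0.92 in mRNA. In edgeR's interaction test the TE of 360 min differed from 0 min by −1.28 log2 units (SE 0.754; edgeR adjusted p = 0.8638), so the opposite movement did not pass the threshold. It ran from −2.11 without 0 min mRNA replicate 2 to −0.72 without 0 min mRNA replicate 1. The values rest on 7 to 17 RPF counts and 8 to 21 mRNA counts per library at these times.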

How the results depend on the processing

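No member change crossed an adjusted p-value of 0.05 under the alternatives run; the smallest was 0.1921, without a filter on low counts. The CDK1 mRNA change at 360 min against 0 min stayed between −1.56 and −1.42 under the other scalings, the looser filter, DESeq2 and the block, and its TE change between 1.41 and 1.54; the filter of 10 counts in every library removed CDK1 from mRNA and TE. Scaling by library totals moved the median log2 change of all transcripts from 0.0237 to −0.119 in RPF and from −0.033 to −0.187 in mRNA at 360 min against 0 min, and from −0.0437 to −0.28 in mRNA at 360 min against 60 min. The sign of small RPF changes at 360 min against 0 min then turned: CCNB1 to −0.03 and CDK1 to −0.03, and without a filter to −0.03 and −0.01.

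Leaving out single libraries turned the sign of 21 of 49 member changes in some fit. In RPF at 60 min against 0 min the ranges were −1.03 to 0.13 (CCNB1), −0.56 to 0.03 (CCND1), −0.12 to 0.34 (CDK1), −0.62 to 0.12 (PLK1) and −0.08 to 0.37 (TOP2A). In RPF at 360 min against 0 min they were −0.41 to 0.78 (CCNB1), −0.13 to 0.34 (CDK1), −0.60 to 0.08 (PLK1) and −0.38 to 0.66 (TOP2A). In mRNA they were −0.24 to 1.15 (CCNE1), −0.48 to 0.19 (MKI67) and −0.09 to 0.72 (TOP2A) at 60 min, and −0.22 to 0.08 (CCNB1), −0.06 to 0.54 (MKI67) and −0.89 to 0.12 (TOP2A) at 360 min. In TE they were −0.75 to 0.39 (CCNB1), −0.25 to 0.20 (CDK1) and −0.56 to 0.23 (TOP2A) at 60 min, and −0.35 to 0.82 (CCNB1), −0.90 to 0.56 (CCND1) and −0.03 to 1.08 (TOP2A) at 360 min. The CDK1 mRNA and TE changes at 360 min kept their sign in every such fit.

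The count of all transcripts past the threshold was 0 in 109 of 129 alternative fits. Without a filter it was 1 and 33 in RPF (60 against 0 and 360 against 60 min), 17, 89 and 113 in mRNA and 2 in TE (360 against 60 min). DESeq2 gave 1, 1 and 2 in RPF, 8 and 66 in mRNA at 360 min against 0 and 60 min, and 2 in TE at 360 against 60 min. With the replicate number as a block it was 1, 2 and 7 in RPF. Leaving out single libraries gave 0 to 1 in RPF at 60 and at 360 min against 0 min, 0 to 75 in RPF at 360 against 60 min (75 without 360 min replicate 1) and 0 to 1 in mRNA at 360 against 60 min. The cause of these differences was not tested.

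Replicate numbers are not stated to mark a common culture. Deviations of same-numbered libraries correlated at 0.223 to 0.292 across times in RPF and at −0.371 to 0.334 in mRNA. The block changed no member's call and turned the sign of no member's RPF change, while the fits that left out a library took no account of the replicate number. Crossing the numbers of the 0 min mRNA libraries, chosen after seeing the data, gave 0 calls in mRNA.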
